A study of Mus musculus with 13 samples.

Results

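The set described here is the T-ALL genome as it differs from the empty control, and it holds 10068 calls. Of these, 2348 were single-nucleotide variants (SNVs), 7574 were short insertions and deletions (INDELs) and 146 were copy number calls, out of 547194 distinct calls in the series. An SNV or INDEL was included when the T-ALL library called it on chromosomes 1 to 19 and the control had no call of the same change at any depth. It also needed at least 10 reads, a quality score of at least 100, at least 4 reads with the alternative allele making up at least 0.2 of its reads (the read share), and a place outside segmental duplications. All T-ALL copy number calls were included, whether or not the control had them. The reverse set, control variants that T-ALL lacked plus all control copy number calls, held 5179.

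The series concerns acute leukaemias in C57BL/6 mice that overexpress retroviral N-Myc, and it sequenced genomic DNA from bone marrow cells labelled 8 to 10 weeks. The T-ALL library came from 2000000 CD3+GFP+ cells, and the empty control library from 1000000 GFP+ cells of empty control mice of the same strain, tissue and stage. Both were made from 350 bp fragments, sequenced from either end over 150 bp to an intended 30x. Each group has 1 library, so no difference between them has a replicate check, and intervals below are 95% intervals that cover counting error only. The labels describe the 2 groups in different protocol texts, and the protocol and the group cannot be told apart. They do not give the promoter that drives N-Myc, the makeup of the empty construct, or whether cells of several mice were pooled. They name no matched normal DNA of the T-ALL mouse, so a variant that the mouse inherited and one that the leukaemia acquired cannot be told apart.

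T-cell acute lymphoblastic leukaemia (T-ALL) arises from immature T cells. Developing T cells join V, D and J segments of their receptor genes, and the DNA between the joined segments is cut out. Loss of the DNA between such segments is thus a genomic mark of T-cell ancestry. N-Myc is a transcription factor of the Myc family that drives growth and division. In a diploid cell a heterozygous variant is carried by about 0.5 of the reads and a homozygous one by nearly 1. CD3, the marker used to sort the T-ALL cells, is a surface protein, and genomic DNA does not show its expression.

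A few changes are printed here because they are among the longest deletions of ordinary, non-repeat sequence that T-ALL alone carried, with 1 exonic deletion added, and thus the clearest view of what a T-ALL INDEL looks like. Coordinates are of build mm10, on the plus strand, and the letters are the bases removed. The 17 bases in an intron of Klf13, a zinc finger transcription factor gene, lay at chr7:63908345-63908361 and were missing in 10 of 28 reads.
Klf13: ggtaacacttagaagct
An intergenic deletion of 13 bases at chr17:73721891-73721903 was carried by 8 of 19 reads.
chr17 intergenic: gtgactagcagat
An intron of Rsu1, which encodes a Ras suppressor protein, lacked 11 bases at chr2:13258068-13258078 in 6 of 20 reads.
Rsu1: cagcagatgga
An intron of Dgke, a diacylglycerol kinase gene, lacked 9 bases at chr11:89057033-89057041 in 15 of 38 reads.
Dgke: tcaccaccg
The exonic deletion, in the zinc finger gene Zfp956 at chr6:47957593-47957619, removed 27 bases in 13 of 20 reads and was also called in 1 other leukaemia library.
Zfp956: ggctctctaggtaagagacatccccag
The deposited annotation labels the Zfp956 deletion a frameshift, G166fs, although its length is a multiple of 3. None of these 5 sequences is a tandem repeat of a short unit, whereas 97.3% of the T-ALL INDELs lay in annotated repeats.

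The T-ALL SNV count was 3.81 times the reverse count. T-ALL had 2348 SNVs (2254 to 2445) that the control lacked, which is 22.3% of its 10506 SNVs that passed the filters, against 617 (569 to 668) in the reverse direction, 7.93% of 7777. The ratio ranged from 2.34 to 7.45 over 15 alternative filters. For INDELs the counts were 7574 (7404 to 7747), 46.4% of 16308, against 4320 (4192 to 4451), 36.7% of 11787, a ratio of 1.75 that ranged from 1.32 to 5.96 over 14 alternatives. The T-ALL library was also the deeper one, by an amount that depended on the calls compared. At the 21876 SNVs called in all 7 libraries of the series its median depth was 53 reads, against 43 in the control and 46 to 49 in the others. The gap was smaller at the shared calls used for relative depth below. There the median T-ALL to control depth ratio was 1.045 at 8535 SNVs and 1.067 at 20529 INDELs. The part of depth in these counts was not tested. Quality was the condition that left out the most calls, since 3070 SNVs and 49066 INDELs absent from the control failed it alone. The lowest quality inside was 100 and the highest outside was 99. Among SNVs, depth left out 493 calls (10 reads at the lowest inside, 9 at the highest outside), the read share 26 (0.2 and 0.199) and segmental duplications 1501.

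Chromosome 5 stood apart from the other chromosomes in read share. The comparison used SNVs found in none of the other 6 libraries of the series ("T-ALL alone"), with no other SNV of T-ALL alone within 1 kb, and outside exons and untranslated regions (UTRs). The chromosome was singled out after its values were seen. On chromosome 5, 21 of 37 such SNVs (56.8%, 39.5 to 72.9) had the alternative base on a share of 0.75 or more of their reads, and the median share was 0.8. On the other 18 chromosomes together, 19 of 710 (2.68%, 1.62 to 4.15) did, and the median share was 0.459. Taken one by one, those 18 chromosomes had medians from 0.386 (chromosome 19) to 0.5, and the highest percentage among them was 10% (2 of 20 on chromosome 12).

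**Figure D1:**
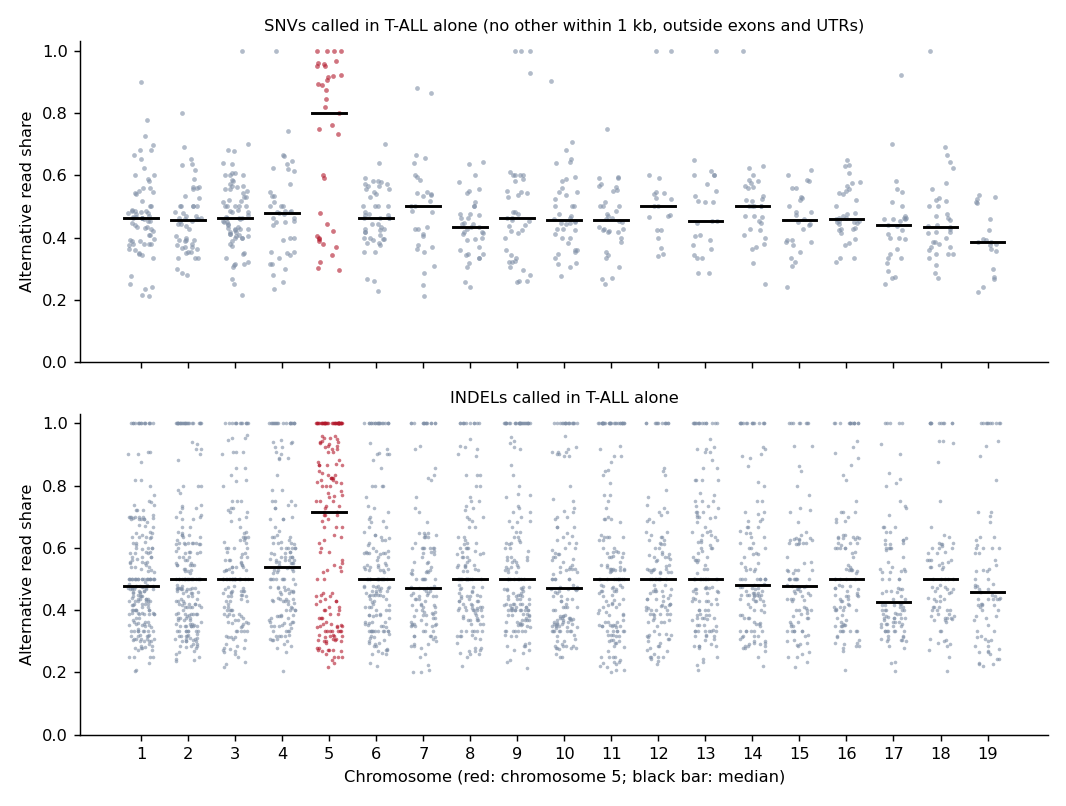
Alternative read share (y axis, from 0 to 1) of SNVs (upper panel) and INDELs (lower panel) called in T-ALL alone, by chromosome (x axis). The SNVs are those with no other SNV of T-ALL alone within 1 kb and outside exons and UTRs, and the INDELs are all of T-ALL alone. Chromosome 5 is in red, and a black bar marks each chromosome's median. The chromosome 5 bars sit at 0.8 for SNVs and 0.714 for INDELs, while the bars of the other 18 chromosomes lie between 0.386 and 0.538.

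INDELs of T-ALL alone, which are separate calls, gave the same order. On chromosome 5, 86 of 180 (47.8%, 40.3 to 55.3) had a share of at least 0.75, with a median share of 0.714. Elsewhere 468 of 2628 (17.8%, 16.4 to 19.3) did, with a median of 0.5, and no other chromosome exceeded 24.6% (chromosome 11). Most INDELs lay in short repeats, and 3 INDELs of T-ALL alone on chromosome 5 lay outside repeats, 1 of them with a share of at least 0.75.

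The high-share SNVs were spread along the chromosome. The 21 calls ran from position 15971836 to position 137648094, a span of 121.7 Mb, with a median share of 0.919. Their read depth had a median of 21 (10 to 37), 13 were called homozygous, and 3 were listed in dbSNP. Before the first of them lay 7 SNVs of T-ALL alone, between positions 5522385 and 13233183, with shares from 0.345 to 0.6. Between the outer high-share calls lay 8 SNVs with lower shares, at a median of 0.398, and 1 further low-share call lay beyond the last. By 30 Mb bins, the median share was 0.444 for the 11 SNVs and 0.455 for the 28 INDELs of the first bin, while the SNV medians of the later bins lay between 0.827 and 0.891. The INDEL medians of those bins were 0.562, 0.828, 0.75 and 0.721 in order along the chromosome.

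Named genes on chromosome 5 held some of these SNVs in their introns. Gnai1, which encodes an inhibitory G protein subunit, had 20 of 21 reads with the alternative base. Atp8a1, a phospholipid flippase gene, had 32 of 35 reads. Uso1, a gene of vesicle transport to the Golgi, had 33 of 33. Adgrl3, an adhesion receptor gene, had 22 of 23, and Mapk10, which encodes the stress kinase JNK3, had 28 of 32. Auts2 had 34 of 37 reads, while Tmem132d, between Tmem132b (19 of 21) and Rimbp2 (12 of 13), had 16 of 53. The low-share SNV in Tmem132d thus lay between high-share SNVs in genes, and it was also the deepest of the 37.

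Read depth on chromosome 5 did not stand apart. At 309 SNVs that both libraries called there, T-ALL depth relative to control depth, divided by the genome-wide ratio, was 0.957, and other chromosomes ranged from 0.873 to 1.16. At 1540 shared INDELs it was 0.938, which equals the lowest value among the other chromosomes, whose highest was 1.04. T-ALL had 5 copy number calls on chromosome 5, all gains, of which the longest was 21 kb, and no loss. Other libraries, measured in the same way on their own SNVs, had 0 or 1 chromosome 5 SNVs at a share of at least 0.75, except AUL with 4 of 322. Their chromosome 5 INDELs reached 13.8% to 22.0%. T-MPAL had the like on another chromosome, with 13 of 18 SNVs on chromosome 18. Under 5 other filters the chromosome 5 SNV percentage ran from 51.9% to 76%, against 1.19% to 2.68% elsewhere.

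Losses in T-ALL were few, all at 1 copy, and 2 of the 7 lay in T-cell receptor loci. None overlapped a control loss, and the same was true of all 19 control losses on chromosomes 1 to 19 (100% in both directions), so absence from the other library carried no information here. The T-ALL losses had a median length of 78 kb and summed to 1002 kb, while those of the control had a median of 7 kb. At 10 kb or longer T-ALL had 6 and the control 7, and at 50 kb or longer 5 and 1. In the other 4 complete copy number tables, a T-MPAL loss overlapped the one at chr10:112818001-112823000 and a B-ALL loss the one at chr19:49319001-49391000, both intergenic, and the other 5 overlapped none.

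The longest loss, 458 kb at chr6:41114001-41572000, covered 66.6% of Trb, the locus of the T-cell receptor beta chain. It began inside the V segment Trbv12-1 and ended beyond the last segment of the locus. Inside it lay 16 V segments, both D segments, 13 J segments, both constant regions, 7 V pseudogenes and 1 J pseudogene. The 5 V segments and 6 V pseudogenes from Trbv1 to Trbv11 lay outside. The called loss thus was not limited to DNA between segments, and how it arose was not tested. The lost region also held 8 protein-coding genes, among them the trypsin genes Prss1, Prss2 and Prss3, digestive enzyme genes that sit within the locus. The single T-ALL variant of the set in Trb, an SNV on 10 of 25 reads, lay outside the loss at position 40919514. The 2 calls of any origin inside the loss that passed the filters both had shares of at least 0.75, with a median of 1.

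The gamma locus Trg had a loss of 21 kb, chr13:19186001-19207000, out of the 174 kb of the locus. It held the V segments Trgv6 and Trgv5, and 5 other V segments and all 4 J segments and 4 constant regions lay outside. The alpha and delta locus Tra/Trd had no copy number call, and neither did the immunoglobulin loci Igh, Igk and Igl, in which B cells lose DNA. The control had no copy number call at any of the 6 loci. A loss in steps of 1 kb can miss a short excision, so a locus with no call is one where none was detectable. Igk held 21 SNVs of the set, but none was found in T-ALL alone, and 20 of them lay between positions 68245340 and 68250433 in long terminal repeat (LTR) sequence.

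The other losses touched few genes. The loss at chr1:70988001-71078000 (90 kb) lay over part of Bard1 (71027535 to 71103141), which encodes the partner of the Brca1 repair protein. The loss at chr12:67108001-67386000 (278 kb) lay over part of Mdga2, a gene for a cell adhesion protein of neurons. The loss at chr2:46925001-47003000 (78 kb) held no RefSeq gene. Both Bard1 and Mdga2 losses were called in no other complete table. Inside the 7 losses lay 3 INDELs of the set, on 8 of 15 reads in the Bard1 loss, 8 of 22 in the Mdga2 loss and 8 of 15 in the chromosome 19 loss. Their shares, from 0.364 to 0.533, were those of a site with both alleles read. Few sites gave a separate reading of depth in the losses. Relative depth was 0.625 at 1 shared INDEL in the Bard1 loss, 0.586 at 1 shared INDEL and 0.788 at 1 shared SNV in the Trb loss, and 0.888 at 1 shared SNV in the chromosome 10 loss.

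**Figure D2:**
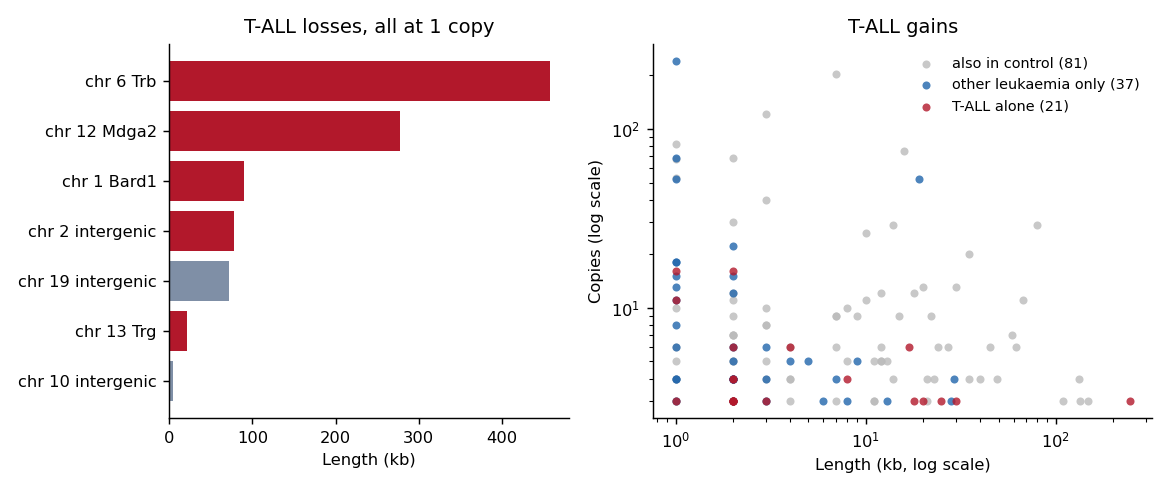
Left, length in kb of the 7 T-ALL losses, in red where no other complete table has the loss and in grey-blue where 1 does. Right, copies against length (both log scales) of the 139 T-ALL gains, coloured by where else they were called. The Trb loss is the longest at 458 kb, and most gains of T-ALL alone (in no other complete table) are under 10 kb at 3 to 6 copies.

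Gains were mostly short and mostly shared. T-ALL had 139 gains, of which 81 overlapped a control gain, and 53 of those were found in all 4 other complete tables too. On chromosomes 1 to 19, 49 of 117 (41.9%) had no control call, against 151 of 203 (74.4%) in the reverse direction. Of the 58 without a control call over all chromosomes, 37 were found in another leukaemia and 21 in no other complete table. For gains, T-ALL alone means these 21, and AUL was not compared. Among the shared ones was a stretch of chromosome 1 with the Ugt1a glucuronidation genes and Mroh2a, called at 11 to 13 copies in T-ALL.

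Many gains of T-ALL alone lay over exons, with adjoining gains, such as those over Malat1 and from Psap to Cdh23, counted one by one. Here gains that the deposited annotation places in exons, UTRs or exons of noncoding RNA genes are all counted as exonic. By that count 14 of 21 (66.7%) were exonic, against 21 of the 81 shared with the control and 5 of the 37 shared with other leukaemias. Counted in the same way among the complete tables, gains of 1 library alone were exonic in 16.4% in the control and 18.2% in B-ALL (2 of 11). They were exonic in 29.0% in AML, 31.8% in M-MPAL and 67.8% in T-MPAL. Malat1, an abundant nuclear long noncoding RNA gene, was called at 6 copies over 2 adjoining gains (4 and 17 kb). In the first of these T-ALL had 11 SNV calls at a median depth of 78 reads, and the control had 0. Rmrp, which encodes the RNA of an RNA-processing enzyme, was at 11 copies over 1 kb, with 2 SNV calls at a median depth of 562.

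Other gains of T-ALL alone covered a range of genes, named after their values were seen. Ctsd and Ctsb, which encode lysosomal proteases, were called at 6 and 4 copies over 2 kb each. Psap, for the lysosomal saposins, was at 3 copies over adjoining gains that ran into Cdh23. Ahnak, for a giant scaffold protein, was at 3 copies over 18 kb, Akap12 at 4 copies over 8 kb, Gpnmb at 3 copies over 2 kb, and Flna, for the actin cross-linker filamin A, at 3 copies over 20 kb of the X chromosome. The longest gain of T-ALL alone, 245 kb at 3 copies, lay on the X chromosome over Fndc3c1. At SNVs that both libraries called, the gains without a control call had a relative depth of 1.27 (quartiles 0.993 and 2.00, 124 SNVs in 13 of 58 calls). Of these SNVs, 85 lay in 1 gain, chr9:124258001-124277000, at 1.35, which all 4 other complete tables also called. Gains of T-ALL alone gave few readings. Relative depth was 2.97 at 3 shared SNVs at chr2:3963001-3965000 and 0.786 at 1 at chr1:44465001-44495000. It was 1.11 at 1 in a Psap gain and 0.812 at 3 in the Cdh23 gain. Gains with a control call had 0.902 (2416 SNVs).

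A group of SNVs of T-ALL alone lay in exons and UTRs and gathered in a few genes. Of 1100 SNVs of T-ALL alone, 59 (5.36%, 4.11 to 6.86) lay in exons or UTRs, of which 19 were synonymous, 7 missense and 33 in UTRs. In the other 6 libraries the percentage ran from 1.47% to 4.15%, and the interval of the control (1.81 to 8.00, 8 of 193) overlapped that of T-ALL. In T-ALL 6 genes held at least 3 such SNVs, and in the other libraries 0 did. Median depth at the 59 was 48 reads, against 30 at the other SNVs of T-ALL alone.

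Thbs1, the gene of the matrix protein thrombospondin 1, led with 12 SNVs (4 synonymous, 2 missense, 6 in UTRs) at shares from 0.277 to 0.478. Actb, which encodes cytoplasmic beta actin, had 8, all synonymous, at depths from 44 to 105 and shares from 0.261 to 0.436. Pfn1, for the actin-binding protein profilin, had 4 in UTRs. Aldoa (a glycolytic enzyme), Itgb1 (an integrin) and P4hb (a protein-folding enzyme) had 3 each, and Canx, Lmna and Vim had 2 each. In these 9 genes together, T-ALL had 39 SNVs of the set, 13 synonymous and 2 missense. Under any filter, T-ALL had 0 intron SNV calls in them and the control had 0 SNV calls. INDELs were not part of these counts. INDELs of the set also lay in UTRs of 4 of these 9 genes, namely Lmna, Canx, Pfn1 and P4hb, and in a UTR of Calr, which encodes a chaperone, at shares from 0.25 to 0.386. None of the 9 genes lay under a T-ALL gain, and the source of these calls was not tested.

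**Figure D3:**
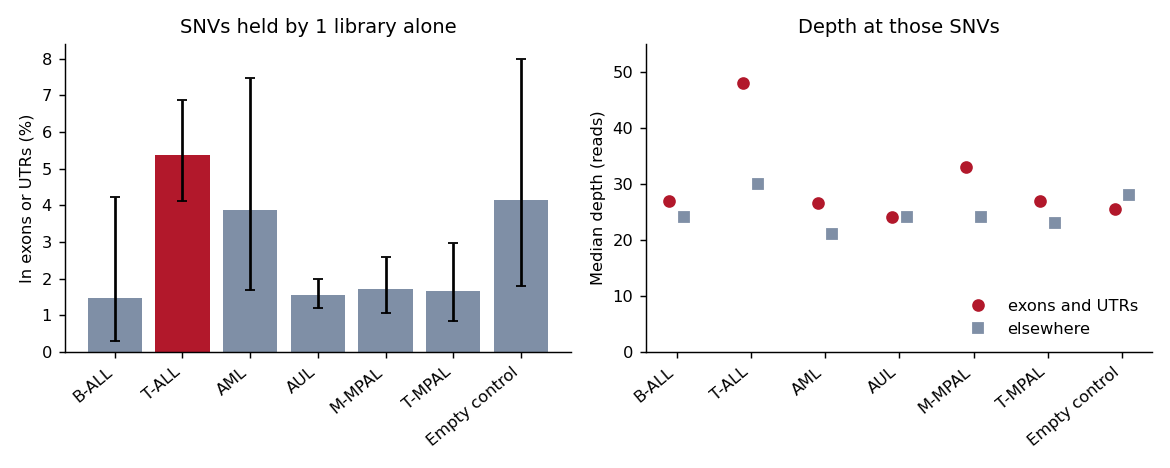
Left, percentage of the SNVs held by 1 library alone that lie in exons or UTRs, per library, with exact 95% binomial intervals. Right, median read depth in reads at those SNVs (red circles) and at the other SNVs of the same library alone (grey-blue squares). T-ALL has the highest percentage, 5.36%, and the highest depth at exon and UTR SNVs, 48 reads, although the interval of its percentage overlaps that of the control.

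How many other libraries shared an SNV went with its read share. Of the 2348 SNVs, 1100 (46.8%) were in T-ALL alone, 405 (17.2%) were in all 5 other leukaemia libraries, and the rest were in 1 to 4 of them. The median share was 0.445 in T-ALL alone and 0.733 in the 405, the percentage called homozygous was 3% and 43.0%, and the percentage in dbSNP was 24.5% and 75.1%. INDELs had a median share of 0.5 for the 2808 of T-ALL alone, a lower 0.429 and 0.444 with 1 and 2 other leukaemias, and 0.522, 0.894 and 1 with 3, 4 and 5. Of the 550 INDELs in all 5 others, 67.5% were called homozygous, against 5.84% of those in T-ALL alone and 4.57% of those with 1 other. Control SNVs that T-ALL lacked showed the same order, so the rise in SNV read share was not particular to T-ALL. The control had 193 SNVs of its own, at a median share of 0.325. With 1, 2, 3, 4 and 5 leukaemia libraries sharing the control SNV, the median share was 0.516, 0.567, 0.574, 0.6 and 0.636. Among the other libraries B-ALL held the most of the T-ALL SNVs (990) and T-MPAL the fewest (726).

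**Figure D4:**
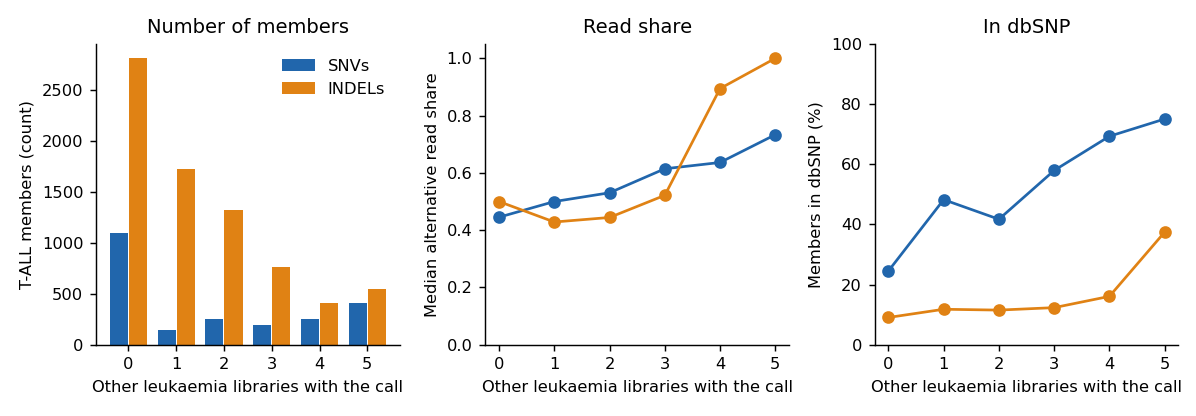
Number (left, bars), median alternative read share (middle) and percentage listed in dbSNP (right) of T-ALL SNVs and INDELs, by the number of other leukaemia libraries with the same call (x axis, 0 to 5). From 0 to 5 other libraries the median share goes from 0.445 to 0.733 for SNVs and from 0.5 to 1 for INDELs.

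SNVs that lay close together differed from single ones. Of the 1100 SNVs of T-ALL alone, 767 were single, and 333 had another SNV of T-ALL alone within 1 kb. The single ones had a median depth of 26 reads, a median share of 0.462 and 15.4% in dbSNP. The close ones had a depth of 48, a share of 0.4 and 45.6% in dbSNP. Their base changes differed as well: T>C changes made up 18.9% (16.2 to 21.9) of the single and 47.1% (41.7 to 52.7) of the close SNVs, and C>T changes 37.9% (34.5 to 41.5) and 24.9% (20.4 to 29.9). The C>T percentage was also 37.9% (34.1 to 41.9) for the 617 control SNVs that T-ALL lacked, and 44.6% (37.4 to 51.9) for the 193 SNVs of the control alone, an interval that overlaps that of the single T-ALL SNVs. SNVs found in all 5 other leukaemias had a C>A percentage of 20.5% (16.7 to 24.8), close to the 20.7% (15.2 to 27.1) of the control alone, and 1.01 transitions per transversion, against 1.32 for single and 2.58 for close SNVs of T-ALL alone.

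**Figure D5:**
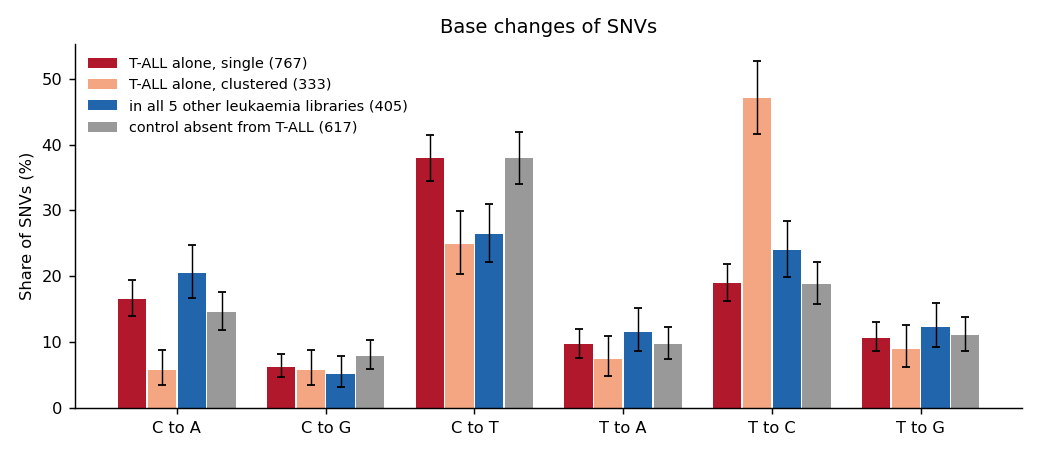
Percentage of SNVs in each of 6 base change classes (written from the pyrimidine, C or T) with exact 95% binomial intervals, for single and clustered (within 1 kb of another of T-ALL alone) SNVs of T-ALL alone, SNVs in all 5 other leukaemia libraries, and control SNVs that T-ALL lacked. The clustered T-ALL SNVs peak at T to C with 47.1%, and the single ones and the control at C to T with 37.9% each.

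Runs of at least 5 SNVs with steps of at most 1 kb numbered 46 and held 352 SNVs. The run of T-ALL alone with the most SNVs had 20 in 1140 bases, at chr11:48752357-48753496, with a median depth of 57.5 and a median share of 0.513. An intron of Luc7l, a splicing factor gene, held 10 SNVs of T-ALL alone, chr17:26269640-26270354, all listed in dbSNP, and T-ALL alone had an 11-base insertion there on 18 of 57 reads.
Luc7l insertion: ccatgcaacag
The longest run, 29 SNVs at chr8:123429305-123434110, lay in LTR sequence, and each of its SNVs was called in at least 1 other leukaemia. Of the 46 runs, 17 were in T-ALL alone, 19 had every SNV elsewhere too, and 10 were mixed.

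Protein-altering variants numbered 17 in T-ALL (9.90 to 27.2) against 8 (3.45 to 15.8) in the control, with overlapping intervals. They were 12 SNVs, all missense, and 5 INDELs. Synonymous SNVs numbered 26 in T-ALL and 2 in the control. The number of protein-altering variants was 10 in T-ALL, and 3 in the control, when exon and UTR SNVs of the library alone were left out. None lay in a gene of the lists below. Outside those of Thbs1, T-ALL alone carried 5 missense SNVs, named here in order of read share.

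Kdm4a, which encodes a histone lysine demethylase, had S1047L in exon 22 on 16 of 28 reads (57.1%, 37.2 to 75.5), at chromosome 4, position 118138285. Abcc2, the gene of a drug and bilirubin exporter, had R1077W in exon 23 on 19 of 38 (50%, 33.4 to 66.6). Podnl1, a gene for a leucine-rich repeat protein of the matrix, had L380V on 17 of 37, and Ganc, an alpha-glucosidase gene, had D444N on 15 of 33. These 4 had shares near 0.5 and no other SNV of the set within 1 kb. Aoc3, an amine oxidase gene, had R566L on 7 of 29 reads (24.1%, 10.3 to 43.5). Both Thbs1 changes, Q960R and F951V, stood 28 bases apart, among the close SNVs described above.

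The remaining missense SNVs were found in other leukaemias too. Ugt1a1 (Y232F, 52 of 171 reads) and Mroh2a (A1665S and D1050N, 32 of 144 and 31 of 149) lay in the chromosome 1 stretch at 11 to 13 copies. Eppk1, for the cytoskeletal linker epiplakin, had E3048V on 32 of 115 reads, and Cmya5, a muscle protein gene, had A1665T on 20 of 30. Of the INDELs, both in Hoxa13, a homeobox gene, were on 13 of 13 and 10 of 10 reads, and a splice-site INDEL of Ccdc6 was on 8 of 23. The other 2 INDELs were in zinc finger genes, Zfp956 and 1 more.

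INDELs of T-ALL differed from those of the control in size and repeat unit. Deletions made up 62.0% (60.9 to 63.1) of the 7574 T-ALL INDELs, against 76.0% (74.7 to 77.3) in the control, and changes of 2 bases made up 61.5% against 73.6%. Among INDELs in simple repeats, 57.7% in T-ALL and 69.4% in the control changed an AC unit. AGAT units were changed in 7.36% (6.73 to 8.03) against 2.24% (1.80 to 2.77), AT units in 7.05% against 1.56%, and AAAG units in 2.73% against 0.739%. Homozygous calls were 12.8% of the T-ALL and 3.31% of the control INDELs, and the median share was 0.5 and 0.421. The gap was smaller among INDELs of 1 library alone, with 5.84% and 2.60% homozygous and median shares of 0.5 and 0.429. INDELs also called in all 5 other leukaemias were 7.26% of the T-ALL and 1.94% of the control set. Of these, 67.5% and 20.2% were called homozygous. Outside repeats T-ALL had 207 INDELs and the control 65. Of these, 79 and 25 were found in 1 library alone.

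Few variants lay at gene starts. In windows from 250 bases before to 50 after a start, taken from the RefSeq table of GRCm38.p6, T-ALL had 6 of its 2348 SNVs (0.256%, 0.0938 to 0.555) and 2 of its 7574 INDELs (0.0264%, 0.0032 to 0.0954). The control had 4 of 617 SNVs (0.648%, 0.177 to 1.65) and 7 of 4320 INDELs (0.162%, 0.0652 to 0.334), which are higher percentages with overlapping intervals. One of the 6, chosen for its gene after its values were seen, lay 201 bases before the start of Mllt10, whose human counterpart is a fusion partner in acute leukaemia. The change from A to C, at position 18055036 of chromosome 2, was on 10 of 19 reads, in T-ALL alone, and is listed in dbSNP. The reference sequence at chr2:18055006-18055056, plus strand, shows the changed base in capitals, at the border of a CAA repeat and a run of A.
Mllt10: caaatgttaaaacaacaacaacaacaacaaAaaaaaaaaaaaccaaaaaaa

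Among genes known from T-ALL, SNVs and INDELs of the set that are described here lay in introns. Of 42 such genes found in the RefSeq table, 4 (9.52%) held an INDEL, against 9.76% of all 20661 protein-coding genes. Dnm2, a gene for the endocytosis GTPase dynamin 2, had an SNV on 11 of 26 reads that was in 2 other leukaemias. Tcf12, which encodes an E protein partner of Tal1, had one on 18 of 18 reads that was in all 5. Runx1, Etv6, Pik3r1 and Tcf12 had INDELs in intronic simple repeats.

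Of all protein-coding genes 2.51% held an SNV of the set, so a count of 0 SNVs in lists as short as those below sets none of them apart. An INDEL of the set was held by 9.76% of all protein-coding genes, and no list was tested against that share. The T-cell identity genes, which include those of CD3, had 0 SNVs in 20 genes, and their INDELs were in introns of Themis and Tox (10%), both genes of thymocyte development. The B-cell identity genes had 0 SNVs in 10 genes, and 3 of the 10 (30%), Pax5, Ebf1 and Blnk, had INDELs, all in intronic simple repeats. Of the 10 myeloid identity genes, Csf3r (10%) had an intronic INDEL on 4 of 12 reads. The DNA repair genes had 0 SNVs in 32 genes, INDELs in Atm, Xrcc4 and Nhej1 (9.38%), and Bard1 partly under a loss. The Myc network genes, Mycn, Myc and Max among them, had 0 SNVs and 0 INDELs in 14 genes. No gene of the 6 lists but Bard1 lay under a T-ALL copy number call.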

How the data were processed

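Genomic DNA of 7 cell populations was sequenced, and the T-ALL and empty control tables were compared here. Reads were aligned with BWA to mm10, per the submitters' processing notes, with no version stated. SNVs and INDELs come from samtools, copy number from FREEC and annotation from ANNOVAR, per the file headers and the names of the files. For each variant the authors deposited a quality score on the Phred scale, the reads covering it and those with the alternative allele. Copy number was deposited as whole copies for each region, with 2 as normal. The AUL table ends within a line and was not used for copy number.

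Calls were matched on chromosome, position, reference and alternative allele. Copy number calls were matched by any overlap of the same kind, with starts counted from 1. Intervals are exact Poisson (counts) and Clopper-Pearson (shares). Relative depth is the T-ALL to control depth ratio at shared calls over its genome-wide median. Read share is alternative reads over depth.

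Named genes are all protein-altering list genes, the 25 such genes outside the lists with the most alternative reads, genes inside losses without a control call, list genes in copy number calls and all receptor loci. Olfactory, vomeronasal, Zfp, Gm and Rik genes are given as counts, except Zfp956. Genes in chromosome 5 introns, gains, UTRs and runs were named after their values were seen. Of the items examined, 1 is not reported here. The members and lists were chosen with earlier results of these data known. Selection was tested on simulated data. The scripts ran under Python 3.11.15 with scipy 1.17.1, pandas 2.3.3, numpy 2.4.6 and, for figures, matplotlib 3.10.9. Alternatives changed the filters, the overlap and the chromosomes.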

Additional observations from a re-analysis of the deposited data

Results flagged for a closer look

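The X chromosome lay outside the variant comparison and carried calls above the level of the control. Under the same filters T-ALL had 185 X-linked SNVs that the control lacked, against 25 in the reverse direction. Of the 185, 16 lay in exons or UTRs, against 0 in the control. Flna, the filamin A gene, held 14 of them, of which 13 were synonymous, at a median depth of 50.5 reads and a median share of 0.381. The cause was not tested, and the labels do not state the sex of either group.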

How the results depend on the processing

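No paired analysis was possible because each group has 1 library. SNVs of T-ALL absent from the control numbered 5418 with a quality minimum of 20, 1118 with 200, 3849 with segmental duplications kept, 1182 outside repeats, 1100 when absent from all 6 other libraries, 1312 without dbSNP calls and 1394 without calls within 1 kb of another. INDELs numbered 3082 at a depth minimum of 20, 56640 and 1527 at the quality minimums of 20 and 200, 207 outside repeats and 2808 when absent from all 6 libraries. Protein-altering variants numbered 35 and 7 at the quality minimums, 32 with segmental duplications, 8 when absent from all 6, 10 without dbSNP calls and 10 without exon and UTR SNVs of T-ALL alone.

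The median SNV share of 0.5 was 0.545 and 0.455 at depth minimums of 5 and 20, 0.382 and 0.568 at the quality minimums, 0.51 at a share minimum of 0.3, 0.449 with segmental duplications, 0.458 outside repeats, 0.445 when absent from all 6 and 0.458 without dbSNP calls. The C>T percentage was 33.2%, and 30.4% and 35.8% at the depth minimums, 29.1% and 36.5% at the quality minimums and 38.2% without dbSNP calls. Gains without a control call numbered 7 at 10 kb or longer, 0 at 50 kb or longer and 18 when in no other table. Stricter conditions leave fewer calls by construction; why the shares moved was not tested. The 7 losses numbered 5 to 7 under every alternative run. The chromosome 5 SNV percentage was 76% at quality 200. That of INDELs was 26.3% at depth 20, 87.3% at quality 200 and 33.3% outside repeats (1 of 3), against 6.05%, 29.4% and 10.5% on other chromosomes. Control losses numbered 19, 7 at 10 kb or longer and 1 at 50 kb or longer. Control protein-altering variants numbered 8, and 4 at a share minimum of 0.3. The chromosome 5, gain and exon alternatives were chosen after seeing the data.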
